A study of Mus musculus with 22 samples.

Results

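The 35 genes described here make sterols and fatty acids or govern that synthesis, and they are 35 of the 44792 genes counted in each RNA library. They were taken by gene name from the count table, with no use of their values, and all 35 passed the filter on low counts. Of these, 7 act in the mevalonate steps, 11 in the squalene and sterol steps, 6 regulate synthesis or move sterol within the cell, and 11 make, lengthen, desaturate or activate fatty acids. Msmo1 stands in the table under its older symbol Sc4mol.

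The RNA came from C57BL/6 mice in 4 groups. The NMDA group was Müller cells of mice 2 to 3 months old given NMDA into the eye 2 days earlier (3 libraries). NMDA is an agonist of glutamate receptors and is used to injure retinal neurons. The aged group was Müller cells of mice 1.5 years old (2 libraries), the RPC group was retinal progenitor cells of embryonic day 12.5 (3 libraries), and the young group was Müller cells of uninjured mice 2 to 3 months old (2 libraries). Müller cells were sorted by the GFP of an Rlbp1 reporter, which all 3 adult groups carried, and the sources used here give neither a sort nor a reporter for the RPC. DNA methylation was measured by reduced representation bisulfite sequencing (RRBS) in 3 libraries of each group.

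The RNA libraries held 10149390 to 36486072 counts, and levels are given as CPM, counts scaled to the library total. Both young libraries stood apart in the number of genes with a count, 13913 and 14919, against 20920 to 23618 in the other 8 libraries, while the RPC libraries were of like depth (11067405 to 14520423 counts). Summed over 12 Müller glia markers, levels were 25478, 19557 and 26030 CPM in NMDA cells, 53523 and 54264 CPM in aged cells, 2419, 2464 and 2410 CPM in RPC, and 66230 and 56384 CPM in young cells. Summed over 12 progenitor markers, RPC held 8588 to 8915 CPM and the other groups 1237 to 2698 CPM. The adult Müller libraries also held 5525 to 14157 CPM of 12 photoreceptor markers, against 24 to 33 CPM in RPC, and 4 of the 12 were at 0 in each RPC library. The 13 microglia and macrophage markers summed to 337, 3533 and 723 CPM in NMDA cells, 90 and 101 CPM in aged cells, and 13 and 95 CPM in young cells. Both young libraries correlated with each other at Pearson's r = 0.884 across genes, which are not independent replicates, below 0.962 to 0.994 for pairs within the other groups. The p-values measure only the spread between these libraries.

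Cells build cholesterol from acetyl-CoA through mevalonate and squalene, and they build fatty acids from the same precursor through malonyl-CoA. When the endoplasmic reticulum is low in sterol, Scap escorts the SREBP transcription factors, encoded by Srebf1 and Srebf2, out of it, and they raise most of these genes. The Insig proteins hold Scap back when sterol is plentiful, and Insig1 is itself an SREBP target. Müller glia, the main macroglia of the retina, span its depth and handle lipid for the neurons around them.

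RefSeq promoter sequences (GRCm38.p6) were matched for 28 of the 35 members. Fads1, Fdps, Fdft1, Sqle, Scd2, Stard4 and Scd1 had no entry in the table used. Printed here are the 250 bases before the annotated start for 6 members that were lower in NMDA cells than in both adult groups, and for Acsl3, a member with one of the widest ranges of level. They lie at chr13:119690101-119690350 on the plus strand for Hmgcs1, chr5:4104698-4104947 on the minus strand for Cyp51, chr9:42264301-42264550 on the minus strand for Sc5d, chr5:28071162-28071411 on the plus strand for Insig1, chr15:82147019-82147268 on the plus strand for Srebf2, chr11:120824548-120824797 on the minus strand for Fasn and chr1:78657575-78657824 on the plus strand for Acsl3. The Fasn stretch lies inside the annotated span of its gene, which runs to chr11:120825166, because the start used is not the outer end of that span. Every printed sequence runs 5′ to 3′ on the strand of its gene. Capitals mark the SREBP consensus TCACNCCAC and the CCAAT box on either strand, where ATTGG is CCAAT on the other strand.
Hmgcs1: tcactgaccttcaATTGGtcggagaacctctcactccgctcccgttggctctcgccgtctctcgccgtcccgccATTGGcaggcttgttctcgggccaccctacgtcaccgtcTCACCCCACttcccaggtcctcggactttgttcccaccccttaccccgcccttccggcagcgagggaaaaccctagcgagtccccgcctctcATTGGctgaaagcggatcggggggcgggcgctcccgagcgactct
Cyp51: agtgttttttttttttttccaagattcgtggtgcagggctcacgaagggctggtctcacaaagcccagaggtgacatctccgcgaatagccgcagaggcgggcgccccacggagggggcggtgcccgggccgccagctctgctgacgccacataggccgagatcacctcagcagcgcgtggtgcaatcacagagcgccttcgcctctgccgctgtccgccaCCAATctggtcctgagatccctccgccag
Sc5d: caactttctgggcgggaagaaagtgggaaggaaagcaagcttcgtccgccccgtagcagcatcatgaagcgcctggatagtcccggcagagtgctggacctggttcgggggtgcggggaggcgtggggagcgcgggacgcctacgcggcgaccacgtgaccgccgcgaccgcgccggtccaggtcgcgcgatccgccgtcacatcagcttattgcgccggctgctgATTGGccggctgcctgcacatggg
Insig1: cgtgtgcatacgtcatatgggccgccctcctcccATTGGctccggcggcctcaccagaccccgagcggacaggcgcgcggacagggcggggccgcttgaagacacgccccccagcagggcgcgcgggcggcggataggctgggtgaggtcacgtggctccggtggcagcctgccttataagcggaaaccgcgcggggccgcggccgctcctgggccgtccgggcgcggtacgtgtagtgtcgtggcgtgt
Srebf2: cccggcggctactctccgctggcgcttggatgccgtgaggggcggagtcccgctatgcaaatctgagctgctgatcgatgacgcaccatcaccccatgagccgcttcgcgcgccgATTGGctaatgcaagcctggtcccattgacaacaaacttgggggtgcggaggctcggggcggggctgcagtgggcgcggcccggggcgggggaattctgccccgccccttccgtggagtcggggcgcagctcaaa
Fasn: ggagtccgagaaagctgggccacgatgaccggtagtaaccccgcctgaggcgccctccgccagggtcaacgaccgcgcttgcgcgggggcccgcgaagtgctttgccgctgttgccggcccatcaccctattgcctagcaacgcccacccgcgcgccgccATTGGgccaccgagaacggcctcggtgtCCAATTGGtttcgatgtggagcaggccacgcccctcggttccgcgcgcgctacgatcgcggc
Acsl3: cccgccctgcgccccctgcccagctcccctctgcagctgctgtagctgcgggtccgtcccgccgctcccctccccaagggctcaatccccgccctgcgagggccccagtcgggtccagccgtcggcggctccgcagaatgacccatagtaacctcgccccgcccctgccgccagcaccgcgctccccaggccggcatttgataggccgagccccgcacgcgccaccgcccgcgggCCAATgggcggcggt

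The CCAAT box, read on both strands, lay in 20 of the 28 member promoters (71.4%), against 34.5% of 27025 promoters of the same length. The GC box GGGCGG lay in 21 of 28 (75%), against 33% of all promoters. The letters TCACNCCAC were found in Hmgcs1 alone (3.57% of members, 1.03% of all promoters), 129 to 137 bases before the start. Only these exact letters were sought, so a site that differs from them was not counted. The E-box CACGTG lay in the promoters of Hsd17b7, Insig1 and Sc5d (10.7% of members, 6.04% of all promoters). Base composition was not matched between members and all promoters, and no motif overlapped the SREBP consensus match. The starts used for Fasn, Srebf1 and Acaca lie inside the annotated span of the gene, so these sequences need not be promoters. Those of Mvk, Lss, Hsd17b7 and Insig2 lie inside it by fewer bases.

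After NMDA, 10 of the 18 sterol genes were lower than in young Müller cells and 0 were higher, while 6 of the 11 fatty acid genes were higher and 2 lower. Over all 35 members 7 were higher, where 30.6% of all 18931 genes tested were called higher, and 15 were lower, where 14.3% of all genes were called lower. The median log2 change of the members was -0.36, against 0.26 over all genes, and the first is the same with Elovl6 at its bound given further on. Of the 18 sterol genes 1 was higher at an unadjusted p under 0.05 and 0 by DESeq2. Genes are called at an adjusted p under 0.05 in edgeR's quasi-likelihood test, and log2 changes are given with their SE.

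The same injured cells set against aged Müller cells gave 0 members higher, where 10.5% of all genes were called higher, and 11 lower, where 9.80% of all genes were. The median log2 change was -0.28 over the members and 0.04 over all genes. In this comparison 1 member was higher at an unadjusted p under 0.05, and 0 by DESeq2. The 11 were Hmgcs1, Idi1, Sqle, Lss, Cyp51, Sc5d, Insig1, Srebf2, Fasn, Fads1 and Acsl3, and 8 of them, all but Idi1, Fads1 and Acsl3, were also lower against young cells. The count of 11 was 7 without NMDA 1 and 5 without NMDA 3. Over all genes, 1441 and 1255 were then called lower, against 1856 as fitted. Without either aged library, which left 1 library in that group, both counts fell further. The calls of Lss, Fads1 and Acsl3 were lost without either aged library, and those of Hmgcs1, Idi1, Sqle, Cyp51, Sc5d and Fasn also without 1 or more NMDA libraries, at log2 changes of -1.34 to -0.38. Insig1 and Srebf2 were the 2 members called lower under every alternative fit of both NMDA comparisons.

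RPC stood apart in both directions. Against young Müller cells 11 members were higher in RPC, where 35.9% of all genes were called higher, and 14 were lower, where 24.9% were. Against aged Müller cells 13 were higher in RPC (26.3% of all genes) and 13 lower (29.0% of all genes). Of the 18 sterol genes, 7 were higher and 3 lower than in young cells, and 10 were higher and 1 lower than in aged cells. Of the 11 fatty acid genes, 3 were higher and 6 lower than in young cells, and 2 were higher and 8 lower than in aged cells. The median log2 change of the members was -0.37 against young cells (0.30 over all genes) and 0.07 against aged cells (0.02 over all genes). RPC libraries also held 268 to 1802 CPM of 5 blood markers, against at most 11.7 CPM in the others, and the part of this in the result was not tested. The comparisons with young cells share the same 2 libraries, and those with aged cells share the aged ones. Cells of a type becoming fewer and RNA per cell becoming less cannot be told apart in such bulk libraries.

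Aged against young Müller cells gave 7 members higher, where 21.1% of all genes were called higher, and 5 lower, where 5.85% were. The median log2 change was -0.02 over the members and 0.13 over all genes. The 7 were Srebf1 and 6 fatty acid genes, the same 7 that were higher in NMDA cells than in young cells. The 5 lower were Pmvk, Mvd, Fdft1, Tm7sf2 and Acly. Without young 2 the count of 7 rose, and without young 1 the count of 5 rose. Without either aged library the count of 5 fell. Counts over all genes moved the same way. Each of these fits left 1 library in a group.

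Another scaling moved these counts where young cells were the baseline. The median log2 change of all genes against young cells was 0.26 in NMDA cells and 0.13 in aged cells, and upper-quartile scaling brought these to 0.04 and 0. Under that scaling 5094 genes were higher and 3825 lower in NMDA cells, against 5795 and 2702 as fitted, and 3527 were higher and 1848 lower in aged cells, against 3997 and 1108 as fitted. The members then came to 7 higher and 17 lower in NMDA cells, and to 6 higher and 9 lower in aged cells.

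**Figure D1:**
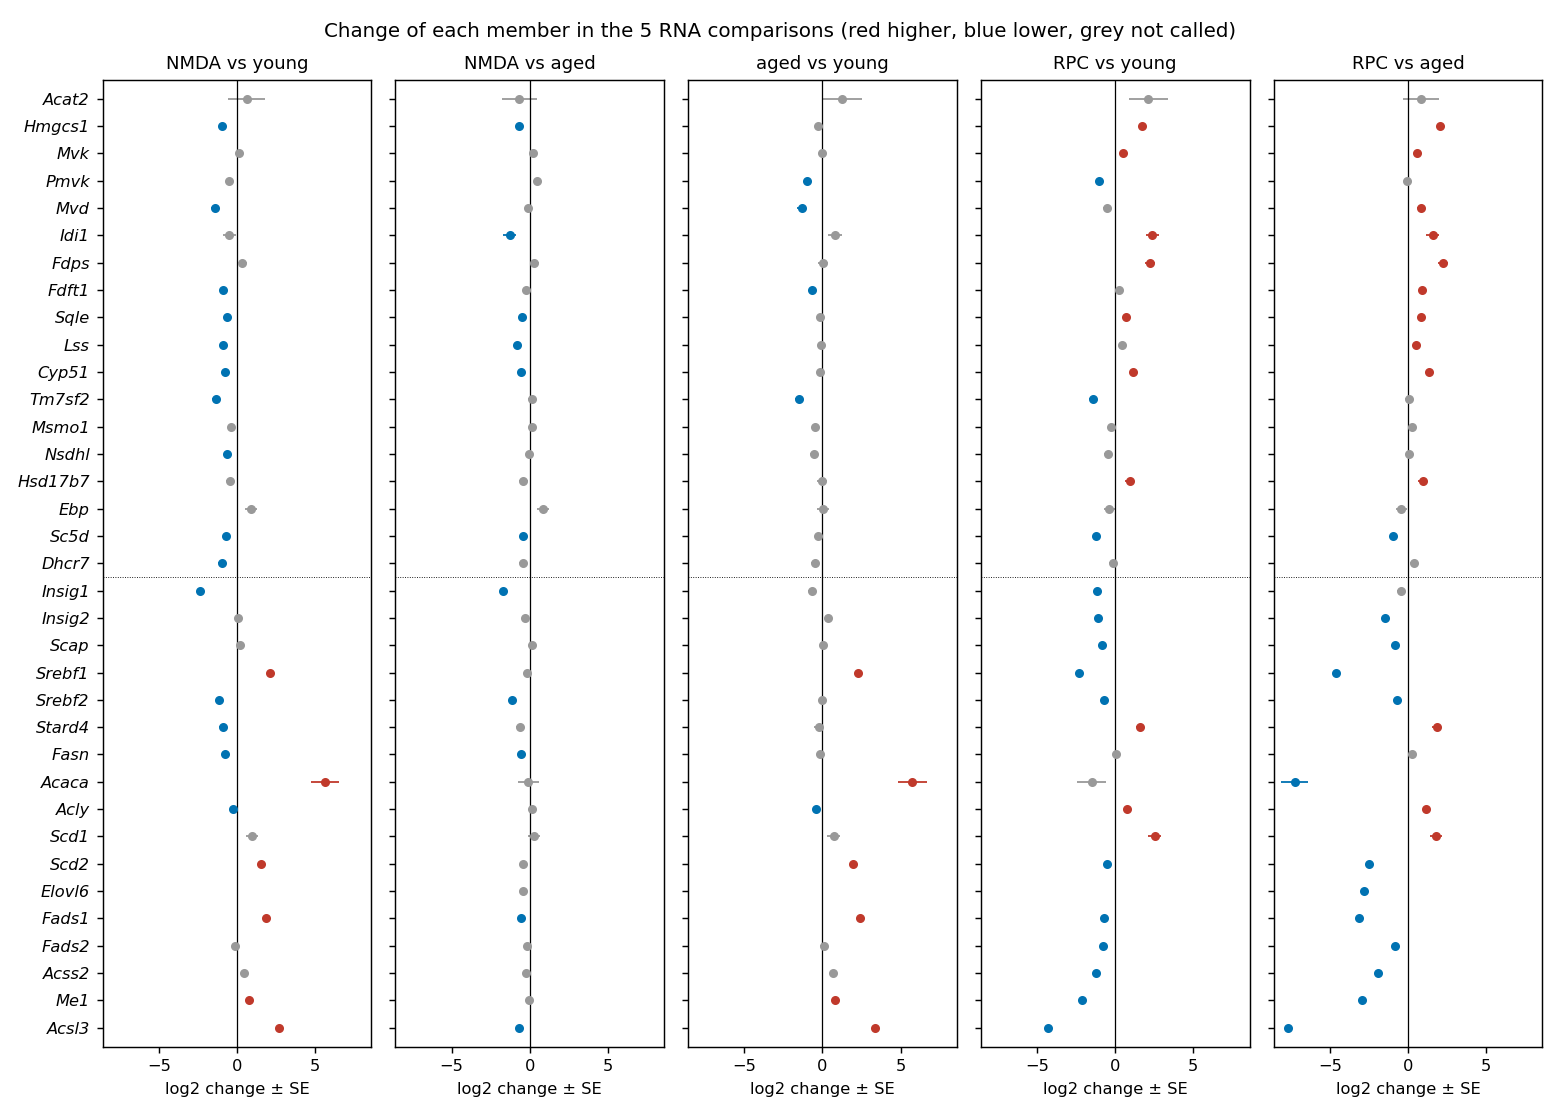
Log2 change with its SE (horizontal axis) of each member (rows, 18 sterol genes above the dotted line) in the 5 RNA comparisons, with red for called higher, blue for called lower and grey for not called. Elovl6 is left out of the panels against young cells, where it was at 0. In the panel of NMDA against aged cells 11 points are blue and 0 are red.

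Of the 7 mevalonate genes, Hmgcs1 and Mvd were lower in NMDA than in young cells, and Hmgcs1 and Idi1 were lower than in aged cells. Hmgcs1, a cytosolic synthase of the mevalonate steps, had 83.3, 92.6 and 76.4 CPM in NMDA cells, 139 and 113 CPM in aged cells, 694, 571 and 692 CPM in RPC and 199 and 157 CPM in young cells. The 4 groups did not overlap, in the order NMDA, aged, young and RPC. Its log2 change was -0.98 ± 0.16, edgeR adjusted p = 0.00186 in NMDA against young cells and -0.66 ± 0.16, edgeR adjusted p = 0.0233 against aged cells. In RPC it was 1.74 ± 0.18, edgeR adjusted p = 4.44e-05 against young cells. Idi1, which interconverts the isoprenoid building blocks, had 3.84, 4.32 and 4.40 CPM in NMDA cells, 9.98 and 9.39 CPM in aged cells, 38.4, 34.1 and 35.3 CPM in RPC and 3.16 and 9.66 CPM in young cells. Each RPC library was above every adult library, and the young libraries lay on either side of the NMDA ones.

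Idi1 was called higher in RPC against young cells (2.38 ± 0.43, edgeR adjusted p = 0.00146) and lower in NMDA against aged cells (-1.29 ± 0.39, edgeR adjusted p = 0.0487). Fdps, which makes farnesyl diphosphate, had 15.0, 18.7 and 13.4 CPM in NMDA cells, 11.3 and 13.1 CPM in aged cells, 78.2, 67.8 and 66.7 CPM in RPC and 18.1 and 8.87 CPM in young cells. The adult groups overlapped, RPC lay above all of them, and Fdps was 4.77-fold higher in RPC than in young cells (2.25 ± 0.32, edgeR adjusted p = 0.000342). Mvd, the decarboxylase that ends the mevalonate branch, had 11.3, 10.04 and 9.41 CPM in NMDA cells, 8.77 and 11.7 CPM in aged cells, 22.5, 23.0 and 22.7 CPM in RPC and 35.7 and 23.1 CPM in young cells. NMDA and aged cells overlapped at the low end, and RPC lay just below the young libraries. Mvd was lower than in young cells both in NMDA cells (-1.42 ± 0.25, edgeR adjusted p = 0.00217) and in aged cells (-1.33 ± 0.28, edgeR adjusted p = 0.00844), and the second call was lost without aged 1 (adjusted p = 0.066 by edgeR).

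The mevalonate kinases moved less. Mvk, the first of them, ranged over 20.7 to 39.3 CPM in the 10 libraries and was higher in RPC than in young cells (0.51 ± 0.15, edgeR adjusted p = 0.016) and than in aged cells (0.56 ± 0.15, edgeR adjusted p = 0.011). Pmvk, the second, ranged over 12.5 to 31.1 CPM and was lower in RPC than in young cells (-1.04 ± 0.22, edgeR adjusted p = 0.00298) and in aged than in young cells (-0.97 ± 0.24, edgeR adjusted p = 0.0181). The aged call of Pmvk was lost without aged 1 (adjusted p = 0.054 by edgeR) or aged 2 (0.12). Acat2, a thiolase that joins acetyl-CoA units, was at 0 counts in young 1 and at 256 counts in young 2, and it was called in none of the 5 comparisons. In the other groups Acat2 had 19.3, 16.9 and 16.1 CPM in NMDA cells, 27.1 and 24.8 CPM in aged cells and 64.9, 53.2 and 57.1 CPM in RPC.

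**Figure D2:**
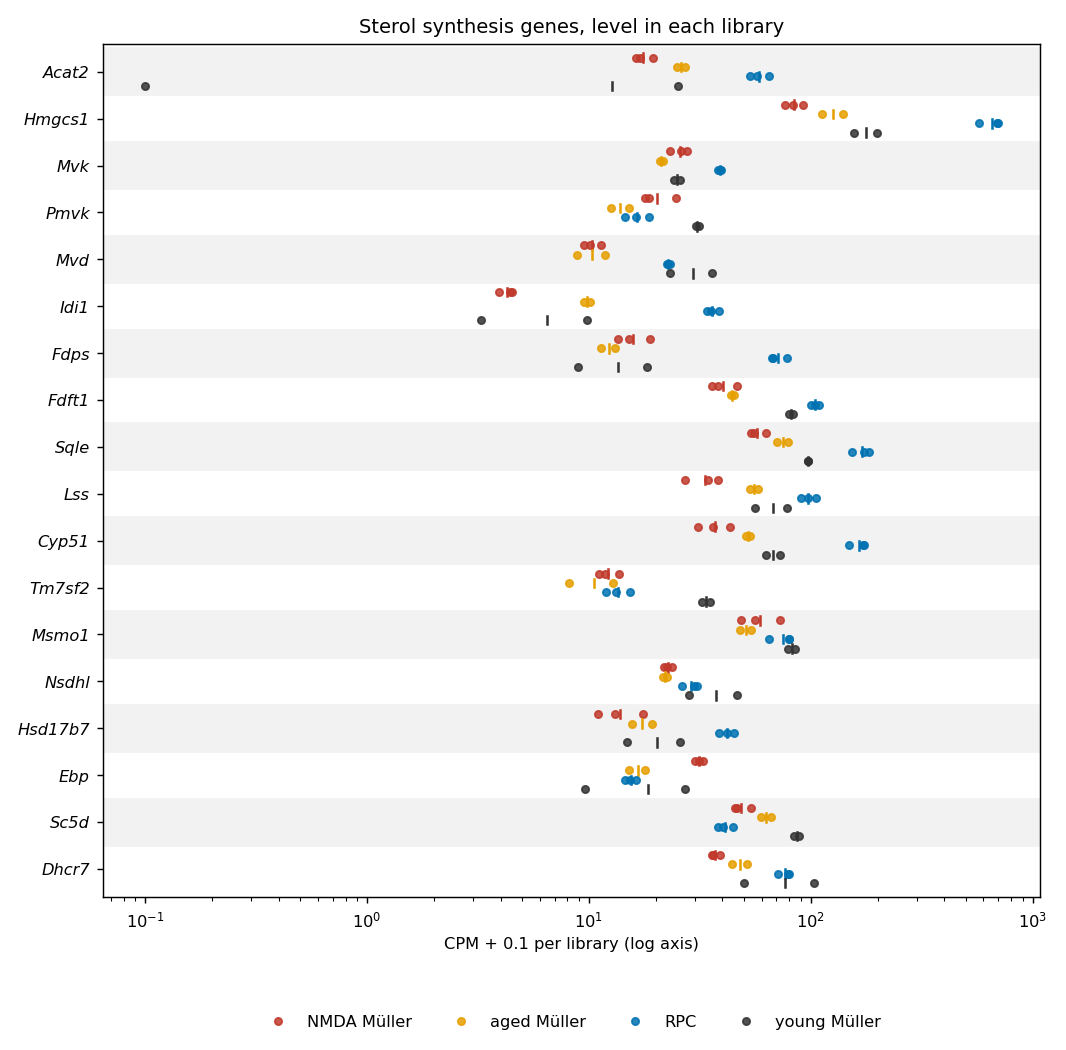
Level of the 18 sterol genes in each RNA library as CPM + 0.1 on a log axis, 1 point a library and a short bar at the mean of each group. The NMDA points of Hmgcs1, Sqle, Lss and Cyp51 lie below all others, and the RPC points of Hmgcs1, Idi1 and Fdps lie above all others. The point of Acat2 at the left edge is young 1, with 0 counts.

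Of the 11 squalene and sterol genes, 8 were lower and 0 higher in NMDA than in young cells, and 4 were lower than in aged cells. Sqle, the squalene epoxidase, had 62.7, 55.4 and 53.7 CPM in NMDA cells, 79.0 and 70.7 CPM in aged cells, 182, 153 and 173 CPM in RPC and 96.7 and 96.7 CPM in young cells. The 4 groups did not overlap, with NMDA cells lowest and RPC highest. It changed by -0.65 ± 0.12, edgeR adjusted p = 0.00309 in NMDA against young cells and by 0.68 ± 0.12, edgeR adjusted p = 0.0015 in RPC against young cells. Lss, which closes squalene epoxide into lanosterol, had 38.3, 26.9 and 34.4 CPM in NMDA cells, 53.3 and 57.7 CPM in aged cells, 96.7, 89.8 and 105 CPM in RPC and 56.2 and 78.3 CPM in young cells. NMDA cells lay below the other groups, while aged and young cells overlapped.

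Lss was lower in NMDA cells against young cells (-0.91 ± 0.18, edgeR adjusted p = 0.00418) and against aged cells (-0.82 ± 0.18, edgeR adjusted p = 0.0142). Cyp51, the lanosterol demethylase, had 36.2, 43.3 and 30.8 CPM in NMDA cells, 53.2 and 50.7 CPM in aged cells, 172, 149 and 173 CPM in RPC and 62.6 and 72.7 CPM in young cells. The 4 groups again did not overlap, in the order NMDA, aged, young and RPC. Its change was -0.77 ± 0.16, edgeR adjusted p = 0.00435 in NMDA against young cells and 1.35 ± 0.16, edgeR adjusted p = 0.000132 in RPC against aged cells. Sc5d, a late sterol desaturase, had 45.4, 53.6 and 46.6 CPM in NMDA cells, 59.4 and 65.9 CPM in aged cells, 40.2, 37.9 and 44.4 CPM in RPC and 84.3 and 88.8 CPM in young cells. No groups overlapped, and RPC were lowest. It was the 1 sterol gene lower in RPC than in both adult baselines (-1.21 ± 0.13, edgeR adjusted p = 5.30e-05 against young cells, -0.94 ± 0.13, edgeR adjusted p = 0.000256 against aged cells), and in NMDA cells it changed by -0.72 ± 0.13, edgeR adjusted p = 0.00218 against young cells.

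Fdft1, the squalene synthase, had 35.7, 46.3 and 38.1 CPM in NMDA cells, 45.0 and 43.4 CPM in aged cells, 105, 99.8 and 109 CPM in RPC and 82.9 and 79.7 CPM in young cells. NMDA and aged cells overlapped below young cells, and RPC lay above them all. It was lower than in young cells in NMDA cells (-0.91 ± 0.13, edgeR adjusted p = 0.000867) and in aged cells (-0.69 ± 0.15, edgeR adjusted p = 0.00916), and the aged call was lost without aged 2 (adjusted p = 0.064 by edgeR). Tm7sf2, a sterol reductase, was at 10.97 to 13.5 CPM in NMDA cells, 8.06 to 12.7 CPM in aged cells, 11.8 to 15.3 CPM in RPC and 32.2 to 34.9 CPM in young cells, so that young cells stood above the 3 other groups. Nsdhl and Dhcr7, which remove sterol methyl groups and complete cholesterol, were the remaining 2 genes lower in NMDA than in young cells (-0.61 ± 0.21, edgeR adjusted p = 0.0409 for Nsdhl, -0.94 ± 0.25, edgeR adjusted p = 0.0141 for Dhcr7). Nsdhl lost its call without young 2 (log2 change -0.23) or without any NMDA library.

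Hsd17b7, a ketoreductase of sterol demethylation, was higher in RPC than in young cells (0.93 ± 0.28, edgeR adjusted p = 0.0197), but not without young 1 (log2 change 0.61), RPC 1 or RPC 3. Msmo1, the methyl sterol oxidase, and Ebp, the sterol isomerase, were called in none of the 5 comparisons. Ebp had 9.47 CPM in young 1 and 27.1 CPM in young 2, and its change in RPC against young cells was 0.54 without young 2 and -0.93 without young 1. Dhcr7 likewise had 49.9 and 103 CPM in the young libraries, and its change in RPC was 0.47 without young 2 and -0.54 without young 1.

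Among the regulators, Insig1 and Srebf2 were lower in NMDA cells than in both adult groups. Insig1, which retains Scap in the endoplasmic reticulum, had 38.8, 43.7 and 36.5 CPM in NMDA cells, 133 and 108 CPM in aged cells, 108, 104 and 114 CPM in RPC and 278 and 158 CPM in young cells. NMDA cells were far below every other library, and young 1 was the highest. Its log2 change in NMDA cells was -2.35 ± 0.22, edgeR adjusted p = 9.93e-05 against young cells and -1.69 ± 0.22, edgeR adjusted p = 0.00145 against aged cells. Insig1 in RPC changed by -1.14 ± 0.22, edgeR adjusted p = 0.00196 against young cells and was not called against aged cells. Srebf2, the SREBP most tied to sterol genes, had 235, 213 and 236 CPM in NMDA cells, 482 and 471 CPM in aged cells, 370.4, 370.1 and 358 CPM in RPC and 425 and 667 CPM in young cells. NMDA libraries lay below all others, and RPC lay between them and the aged and young libraries.

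Srebf2 changed by -1.15 ± 0.16, edgeR adjusted p = 0.0007 in NMDA cells against young cells and by -1.14 ± 0.16, edgeR adjusted p = 0.00192 against aged cells. NMDA 2 held the most microglia and macrophage marker RNA, and without it the changes against aged cells were -1.76 for Insig1 and -1.10 for Srebf2. NMDA 1 and NMDA 3 still held 337 and 723 CPM of these markers, against 90 and 101 CPM in aged cells. The part of such cells in the result was not tested. The 11 markers of immediate early and dissociation genes summed to 8753 CPM in young 1 and 3796 CPM in young 2, against 2841 to 3177 CPM in NMDA cells and 3062 to 3927 CPM in aged cells. Young 1, with the highest of these sums, held the higher young level of Insig1 and the lower young level of Srebf2. The Müller marker sum was lower in NMDA cells than in aged and young cells, and its part in the result was not tested.

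Srebf1, the SREBP most tied to fatty acid genes, had 332, 246 and 364 CPM in NMDA cells, 345 and 326 CPM in aged cells, 15.8, 18.3 and 17.7 CPM in RPC and 67.4 and 88.0 CPM in young cells. NMDA and aged cells overlapped at the top, young cells lay below them and RPC were lowest. It was higher than in young cells in NMDA cells (2.13 ± 0.18, edgeR adjusted p = 6.50e-05) and in aged cells (2.30 ± 0.20, edgeR adjusted p = 7.64e-05), and 24.3-fold lower in RPC than in aged cells (-4.60 ± 0.18, edgeR adjusted p = 1.83e-07). Scap, the SREBP escort, had 187, 165 and 194 CPM in NMDA cells, 157 and 149 CPM in aged cells, 99.5, 118 and 102 CPM in RPC and 185 and 162 CPM in young cells. Insig2, the second Insig gene, had 44.1, 41.5 and 39.8 CPM in NMDA cells, 42.9 and 53.2 CPM in aged cells, 21.8, 21.9 and 20.6 CPM in RPC and 40.0 and 44.7 CPM in young cells. For both genes RPC lay below all adult libraries.

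Against young cells Scap changed in RPC by -0.84 ± 0.11, edgeR adjusted p = 0.000241 and Insig2 by -1.11 ± 0.14, edgeR adjusted p = 0.00015, so 5 of the 6 regulators were lower in RPC. The exception was Stard4, a cytosolic sterol carrier, with 9.20, 14.9 and 10.2 CPM in NMDA cells, 19.9 and 13.4 CPM in aged cells, 77.5, 68.2 and 76.3 CPM in RPC and 24.8 and 20.4 CPM in young cells. RPC lay above the adult groups (1.58 ± 0.27, edgeR adjusted p = 0.00104 against young cells). In NMDA cells Stard4 changed by -0.88 ± 0.26, edgeR adjusted p = 0.0226 against young cells, a call lost without young 1 (adjusted p = 0.072 by edgeR), NMDA 1 or NMDA 3.

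**Figure D3:**
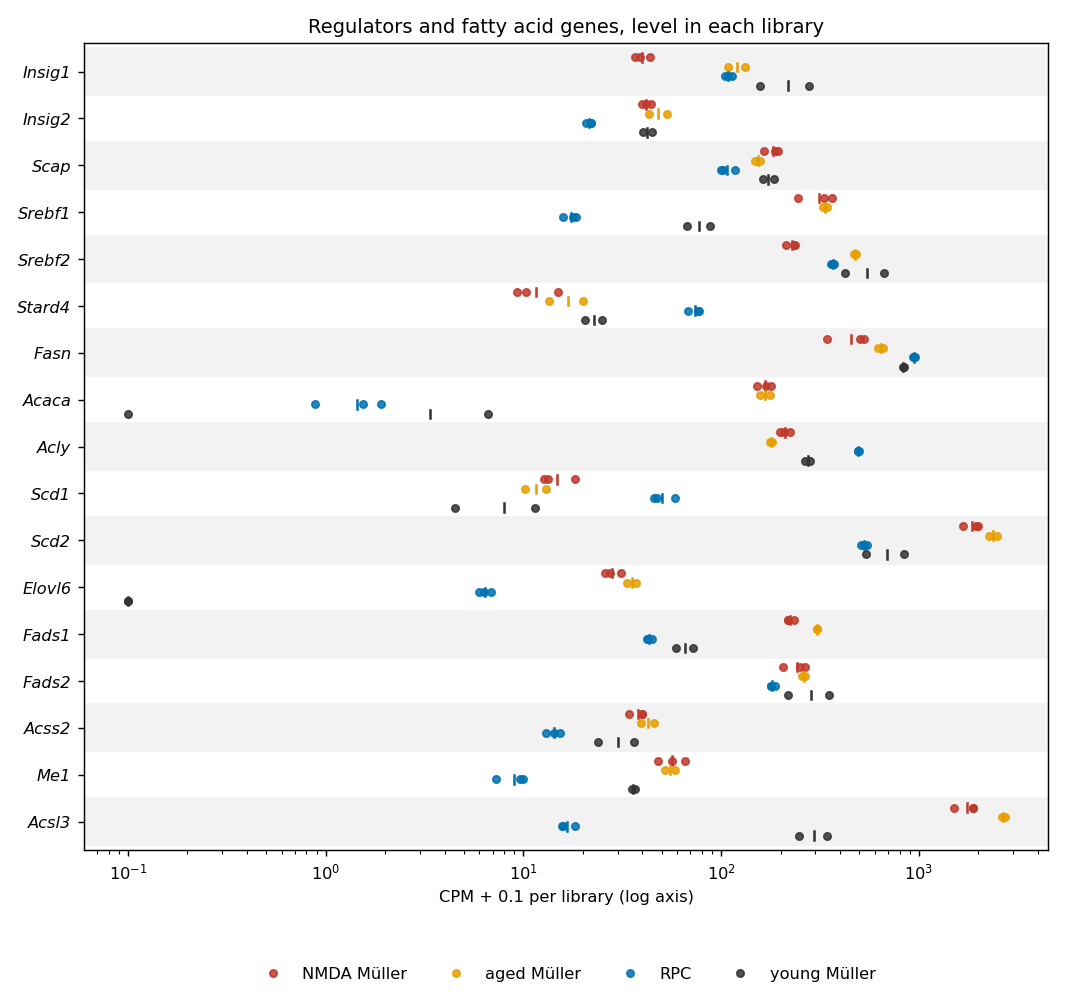
Level of the 6 regulators and 11 fatty acid genes in each RNA library as CPM + 0.1 on a log axis, 1 point a library and a short bar at the mean of each group. NMDA points of Insig1 and Srebf2 lie below all others, and NMDA and aged points of Srebf1, Acaca, Scd2, Elovl6, Fads1, Me1 and Acsl3 lie above those of RPC and young cells. Points of Elovl6 and Acaca at the left edge are young libraries with 0 counts.

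Of the 11 fatty acid genes, 6 were higher in NMDA and in aged cells than in young cells, and these were Acaca, Scd2, Elovl6, Fads1, Me1 and Acsl3. Acsl3, which activates long-chain fatty acids to their CoA esters, had 1870.1, 1501 and 1889 CPM in NMDA cells, 2630.3 and 2717 CPM in aged cells, 15.8, 15.5 and 18.1 CPM in RPC and 249 and 343 CPM in young cells. The 4 groups did not overlap, and aged cells were highest. It was 19.6-fold lower in RPC than in young cells (-4.29 ± 0.18, edgeR adjusted p = 2.94e-07) and 6.40-fold higher in NMDA than in young cells (2.68 ± 0.18, edgeR adjusted p = 1.66e-05). Fads1, a desaturase of polyunsaturated fatty acids, had 235, 218 and 218 CPM in NMDA cells, 307 and 306 CPM in aged cells, 42.4, 44.8 and 42.2 CPM in RPC and 72.4 and 58.8 CPM in young cells. Again no groups overlapped and aged cells were highest.

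Fads1 changed by 1.87 ± 0.11, edgeR adjusted p = 9.13e-06 in NMDA cells against young cells and by -3.15 ± 0.11, edgeR adjusted p = 8.45e-08 in RPC against aged cells. Acsl3 and Fads1 were lower in NMDA than in aged cells (-0.69 ± 0.16, edgeR adjusted p = 0.0177 for Acsl3, -0.54 ± 0.10, edgeR adjusted p = 0.00803 for Fads1), and neither call held without an aged library. Elovl6, the elongase that follows the fatty acid synthase, had 31.2, 27.3 and 25.7 CPM in NMDA cells, 37.2 and 33.4 CPM in aged cells, 5.85, 6.23 and 6.73 CPM in RPC and 0 counts in both young libraries. NMDA and aged cells lay above RPC. With 3 counts allowed over the pooled young libraries, it was at least 236-fold higher in NMDA cells, at least 299-fold higher in aged cells and at least 52.7-fold higher in RPC. The part in these zeros of the fewer genes counted in the young libraries was not tested. Acaca, the carboxylase that makes malonyl-CoA, had 168, 153 and 179 CPM in NMDA cells, 176 and 157 CPM in aged cells and 1.45, 1.81 and 0.787 CPM in RPC, with 99 and 0 counts in the young libraries. Acaca was thus low in RPC and in young cells and was not called between them, and its direction there could not be set. Without young 2, its log2 change in RPC against the remaining young library was -2.41. With 3 counts allowed in young 2 alone, RPC was at least 4.57-fold higher than that library.

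Scd2, a stearoyl-CoA desaturase, had 1990.2, 1669.8 and 1945 CPM in NMDA cells, 2499.6 and 2253 CPM in aged cells, 508, 547 and 526 CPM in RPC and 540.2 and 841 CPM in young cells. RPC overlapped young 1 and lay below the rest. It changed by 1.55 ± 0.18, edgeR adjusted p = 0.000338 in NMDA and by 1.98 ± 0.20, edgeR adjusted p = 0.000212 in aged cells against young cells, and by -2.49 ± 0.18, edgeR adjusted p = 4.13e-06 in RPC against aged cells. Its call against young cells in RPC (-0.52 ± 0.17, edgeR adjusted p = 0.0289) was lost without young 2 (log2 change -0.18) or any RPC library. Scd1, the other desaturase of that kind, had 13.2, 12.6 and 18.3 CPM in NMDA cells, 10.1 and 12.9 CPM in aged cells, 47.5, 58.3 and 45.6 CPM in RPC and 11.3 and 4.43 CPM in young cells. Unlike Scd2 it was highest in RPC (1.81 ± 0.39, edgeR adjusted p = 0.00383 against aged cells), while the adult groups overlapped.

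Me1, a malic enzyme that supplies NADPH, had 47.7, 56.2 and 65.4 CPM in NMDA cells, 58.4 and 51.8 CPM in aged cells, 9.50, 9.85 and 7.17 CPM in RPC and 36.4 and 35.4 CPM in young cells. RPC were lowest, and it changed by -2.15 ± 0.19, edgeR adjusted p = 2.02e-05 in RPC and by 0.76 ± 0.19, edgeR adjusted p = 0.0119 in NMDA cells against young cells. Its call in aged cells was lost without aged 1 (log2 change 0.72) or aged 2 (0.90). Acly, which makes cytosolic acetyl-CoA from citrate, had 199, 224 and 207 CPM in NMDA cells, 178 and 181 CPM in aged cells, 497, 493 and 493 CPM in RPC and 282 and 267 CPM in young cells. The groups did not overlap, and RPC were highest (0.72 ± 0.09, edgeR adjusted p = 0.000187 against young cells). Acly was lower than in young cells in NMDA cells (-0.27 ± 0.09, edgeR adjusted p = 0.0351) and in aged cells (-0.42 ± 0.10, edgeR adjusted p = 0.0142), the first call lost without young 1, NMDA 1 or NMDA 3 and the second without either aged library.

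Fasn, the fatty acid synthase, was at 342 to 526 CPM in NMDA cells, 624 to 661 CPM in aged cells, 931 to 954 CPM in RPC and 833 to 839 CPM in young cells. It was lower in NMDA cells against young cells (-0.77 ± 0.17, edgeR adjusted p = 0.00631) and against aged cells (-0.58 ± 0.17, edgeR adjusted p = 0.0427), the second not without NMDA 3 or either aged library. Fads2, the other polyunsaturated fatty acid desaturase, and Acss2, which makes acetyl-CoA from acetate, were called only in RPC. Fads2 changed there by -0.77 ± 0.18, edgeR adjusted p = 0.00594 and Acss2 by -1.22 ± 0.21, edgeR adjusted p = 0.000927 against young cells.

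Across libraries, 7 members stood higher in all NMDA and aged libraries than in any RPC or young one, and 9 stood lower. The 7 were Srebf1, Acaca, Scd2, Elovl6, Fads1, Me1 and Acsl3, which are the 7 called higher in both NMDA and aged cells. The 9 were Hmgcs1, Mvd, Fdft1, Sqle, Cyp51, Nsdhl, Stard4, Fasn and Acly. Among all 18931 genes tested, 9.93% showed the first pattern and 6.33% the second. Of the 11 members whose annotated span contains another annotated gene, 5 showed the first pattern (45.5%), against 2 of the other 24 members (8.33%). Over all genes the shares were 28.5% of 4000 genes that contain another and 4.61% of 13197 that contain none. Acaca, Acsl3, Fads1, Scd2 and Srebf1 are the 5 members concerned. Whether the libraries were made in different runs is not given in the sources used here, and the part of such a difference in the result was not tested. Without the 11 members, 2 were higher in NMDA than in young cells and 2 in aged than in young cells.

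Other genes of lipid handling were counted by list. Of 25 genes of sterol uptake, storage, efflux and oxysterols, 6 were higher and 7 lower in NMDA than in young cells, where 30.6% and 14.3% of all genes were, and 3 were higher and 5 lower than in aged cells, where 10.5% and 9.80% were. Abca1, which exports cholesterol to lipoproteins, had 639.5, 793 and 625 CPM in NMDA cells, 135 and 129.9 CPM in aged cells and 63.1 and 100.7 CPM in young cells. Every NMDA library was above every aged and young one for Abca1, with a change of 2.29 ± 0.26, edgeR adjusted p = 0.000837 against aged cells. Its highest level was in NMDA 2, which also held the most microglia and macrophage marker RNA, and the part of such cells was not tested. Cyp27a1, a sterol hydroxylase, had 59.9, 43.8 and 58.4 CPM in NMDA cells, 133 and 138 CPM in aged cells, 4.41, 6.96 and 5.77 CPM in RPC and 168 and 192 CPM in young cells. It was lower in NMDA than in aged cells (-1.41 ± 0.17, edgeR adjusted p = 0.00108).

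In RPC, 4 of those 25 genes were higher and 12 lower than in young cells, where 35.9% and 24.9% of all genes were. Lrp1, a lipoprotein receptor, changed there by -1.86 ± 0.11, edgeR adjusted p = 2.28e-06 and Abcg4, a sterol exporter, by -2.19 ± 0.16, edgeR adjusted p = 5.80e-06. Npc1, which releases cholesterol from lysosomes, changed by -1.78 ± 0.12, edgeR adjusted p = 3.89e-06 in RPC against aged cells. Of 23 other genes of fatty acid and lipid synthesis, 9 were higher and 3 lower in NMDA than in young cells, shares near those of all genes (30.6% and 14.3%). In aged against young cells 4 of the 23 were higher, where 21.1% of all genes were, and in RPC against young cells 6 were higher and 12 lower (35.9% and 24.9% of all genes). Elovl5, an elongase of polyunsaturated fatty acids, had 227, 207 and 239 CPM in NMDA cells, 274 and 254 CPM in aged cells, 25.3, 24.8 and 25.3 CPM in RPC and 52.9 and 75.3 CPM in young cells, the same order of groups as Acsl3. Acsl6, an acyl-CoA synthetase, changed by -3.56 ± 0.12, edgeR adjusted p = 1.41e-07 in RPC against young cells.

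Of 15 genes of fatty acid oxidation and ketone bodies, 11 were lower and 2 higher in RPC than in young cells, where 24.9% of all genes were lower and 35.9% higher. In NMDA against young cells 4 of the 15 were higher and 2 lower, near the shares of all genes (30.6% and 14.3%). Cpt1a, which admits fatty acids to mitochondria, had 216, 197 and 223 CPM in NMDA cells, 187 and 184 CPM in aged cells, 8.82, 9.76 and 10.1 CPM in RPC and 90.8 and 115 CPM in young cells. The low RPC libraries gave a change of -3.56 ± 0.12, edgeR adjusted p = 1.35e-07, and NMDA cells one of 1.15 ± 0.12, edgeR adjusted p = 0.000146. Hadha, a subunit of the mitochondrial trifunctional protein, was higher in NMDA than in aged cells (0.87 ± 0.14, edgeR adjusted p = 0.00392), and so was Oxct1, which uses ketone bodies (1.05 ± 0.17, edgeR adjusted p = 0.00378).

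Methylation was read at CpG positions covered by at least 10 reads in all 12 RRBS libraries, within 1000 bases either side of the gene start. Such windows could be measured for 22 of the 35 members. Of these, 18 lay around the annotated start, the same start as used for the promoter sequences. For Mvk, Lss, Srebf1 and Fasn that start lies inside the annotated span. Fdps, Sqle, Scd2 and Fads1 had no start in the table used, and their windows lay around the end of the annotated span with more measured positions, which need not be the start. Over all 10525 gene windows, 90.6 to 93.4% were methylated at under 10% of reads in a library. All 22 member windows were under 10% in each of the 12 libraries, the highest being 8.38% for Elovl6 in young 1. Hence 0 of 22 differed by at least 10 percentage points in any comparison, where 1.28% of 10525 gene windows were called higher and 0.171% lower in NMDA against young cells, 0.352% and 0.304% in aged against young cells, and 2.02% and 0.969% in RPC against young cells. Insig1 had 0 to 0.66% in NMDA libraries, 0 to 0.10% in aged libraries, 0.51 to 3.66% in RPC and 1.47 to 3.20% in young libraries. Srebf2 had 0.53 to 0.78% in NMDA libraries, 0.13 to 0.69% in aged libraries, 0.42 to 1.73% in RPC and 2.53 to 3.90% in young libraries. With no minimum difference the quasi-binomial test called 22, 22 and 17 members lower in NMDA, aged and RPC against young cells. The share of all windows called under this rule is not given here, so these counts are not read as a trait of the members. The median over all 10525 windows moved in the same direction, at 0.78 to 0.86% in NMDA libraries, 0.42 to 0.50% in aged libraries, 0.72 to 2.14% in RPC and 2.99 to 3.98% in young libraries.

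In the rest of the annotated span, more than 1000 bases from the start or span end used, 13 members had at least 5 measured positions. With reads summed over positions, 3 were more methylated in NMDA than in young cells, where 18.4% of 7161 such gene interiors were called higher, and 0 less methylated, where 0.600% were. In RPC against young cells 6 were more methylated, where 28.9% of interiors were, and 0 less, where 2.22% were. In aged against young cells 0 were called in either direction, where 3.98% of interiors were called higher and 2.16% lower, and at an unadjusted p under 0.05 there were 0 higher and 3 lower. These interiors were chosen after the windows at the starts had been examined.

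A sum over positions also moves with where the reads fall, so each position was then given equal weight, a choice made after seeing the data. Of the 13, 3 were again called higher in NMDA cells, where 9.44% of all interiors were, and 4 in RPC, where 17.8% were. The 3 were Sc5d, Srebf2 and Fads1, and the 4 were Sc5d, Srebf2, Scd2 and Fasn. Elovl6 and Srebf1 were called in RPC by the sum of reads alone. The levels that follow are means over positions with equal weight, unless given for a named stretch, where reads were summed.

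Sc5d averaged 52.6, 56.7 and 53.7% over 11 positions in NMDA libraries, 46.3, 45.4 and 46.9% in aged libraries, 82.4, 83.1 and 82.9% in RPC and 41.8, 48.0 and 39.1% in young libraries. RPC were highest, NMDA libraries lay between, and aged and young libraries overlapped. The level was 11.4 points higher in NMDA than in young cells (adjusted p = 0.0105, quasi-binomial F test) and 39.9 points higher in RPC (adjusted p = 1.72e-07, quasi-binomial F test). The sum of reads gave 25.2 and 55.4 points. Sc5d RNA was lower in RPC and in NMDA cells than in both baselines, and so was Srebf2 RNA, while Fads1 RNA was higher in NMDA than in young cells.

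In Sc5d, 8 positions at chr9:42254944-42255130, 9170 bases or more after the start, were at 37.2, 42.6 and 38.5% in NMDA libraries, 30.3, 26.4 and 29.3% in aged libraries, 78.2, 77.5 and 78.7% in RPC, and 20.5, 22.9 and 19.8% in young libraries. Each NMDA library was above each aged and young one, and the pooled difference between NMDA and young cells was 19.1 points. The other 3 positions were at 93.5% in NMDA cells and 95.9% in young cells, and they held 29.9% of the Sc5d reads in NMDA cells and 13.2% in young cells.

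Srebf2 averaged 40.0, 45.6 and 55.5% over 31 positions in NMDA libraries, 32.8, 36.1 and 31.3% in aged libraries, 68.1, 72.3 and 62.5% in RPC and 35.7, 36.6 and 33.6% in young libraries. NMDA libraries lay between RPC and the other adult libraries with no overlap. The level was 11.8 points higher in NMDA than in young cells (adjusted p = 0.0207, quasi-binomial F test) and 32.4 points higher in RPC (adjusted p = 8.30e-06, quasi-binomial F test), against 22.9 and 45.9 points by the sum of reads. Within it, 20 positions at chr15:82192862-82193508, from 45593 bases after the start, were at 19.9, 29.3 and 39.9% in NMDA libraries, 8.04, 10.5 and 9.16% in aged libraries, 54.6, 61.0 and 48.3% in RPC, and 13.2, 14.0 and 9.21% in young libraries. The pooled difference there was 17.6 points between NMDA and young cells. A stretch of 3 positions at 76.9% in NMDA cells and 73.4% in young cells held 15.3% of the Srebf2 reads in NMDA cells and 5.40% in young cells.

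Fads1 differed from both in that RPC were not above young cells. Its 12 positions at chr19:10183901-10184437 averaged 20.9, 21.8 and 38.3% in NMDA libraries, 4.65, 5.53 and 3.31% in aged libraries, 6.33, 8.40 and 4.54% in RPC and 8.46, 13.4 and 8.45% in young libraries. Every NMDA library was above every other one, and the difference from young cells was 16.9 points (adjusted p = 0.00379, quasi-binomial F test), against 25.1 points by the sum of reads. RPC differed from young cells by -3.67 points there (adjusted p = 0.261, quasi-binomial F test). Fads1 RNA was higher in NMDA than in young cells, and lower than in aged cells by a call lost without either aged library. The files do not say whether any of these positions is exonic or intronic.

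In RPC, Scd2 and Fasn were also more methylated in the rest of the gene than in young cells. Scd2 averaged 81.3% in RPC and 42.8% in young cells over 6 positions, and Fasn 76.4% in RPC and 54.3% in young cells over 10 positions. Srebf1 averaged 23.6% in RPC and 14.4% in young cells over 32 positions, 9.19 points apart and so under the minimum of 10. Elovl6 averaged 33.4% in RPC and 34.3% in young cells over 38 positions. By the sum of reads Elovl6 stood at 53.6% in RPC and 21.7% in young cells, while a stretch of 23 of its positions, at 1.89% in RPC and 3.43% in young cells, held 4081 reads in RPC and 6096 in young cells. Of the pair called, Scd2 RNA was lower in RPC than in young cells and Fasn RNA was not called.

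By the sum of reads over all their positions the other 6 members differed by under 10 points in each comparison. Mvk, Scap and Acly stayed between 73.6 and 92.8% in all 12 libraries. Fdft1 was 7.01 points higher in NMDA and 8.67 in RPC than in young cells (adjusted p = 0.0235 and 0.00675, quasi-binomial F test). Within it, 14 positions stood at 24.3% in NMDA, 11.9% in aged, 27.2% in RPC and 8.29% in young cells. Its other 19 stood at 0.161, 0.046, 1.56 and 3.03%. NMDA 1, at 12.4% in the 14, overlapped aged libraries, and the stretch was not tested alone. Acaca stayed at 0.16 to 3.12%, but all 56 of its positions lay before the start used, within the annotated span, and 33 of them began at the outer end of that span, so they are not positions inside its transcribed part as that start defines it. How much of a gain in NMDA libraries came from other cells in the sort was not tested.

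**Figure D4:**
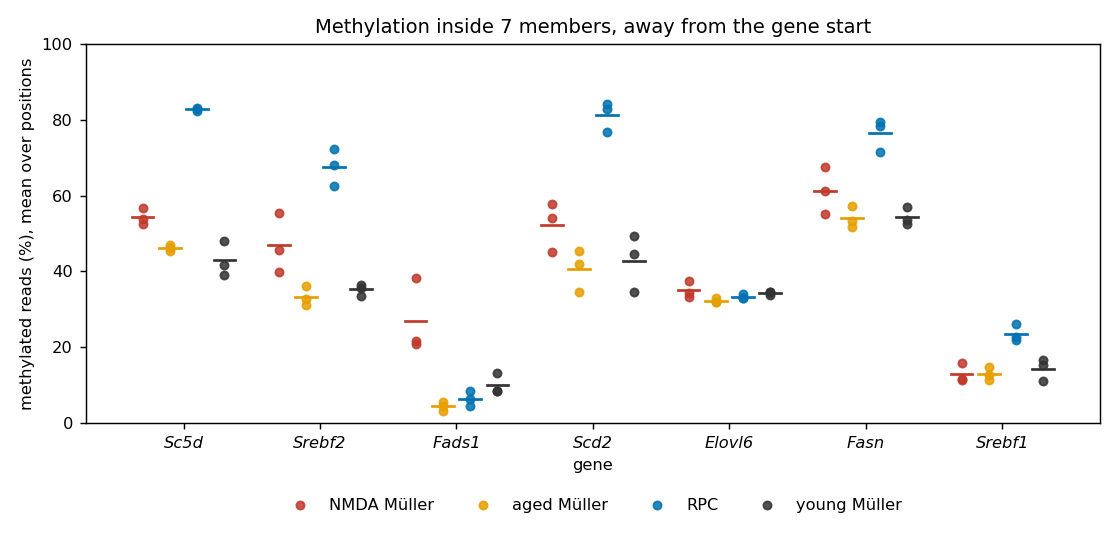
Percent of reads methylated, as the mean over CpG positions with equal weight (vertical axis), in the rest of 7 members, more than 1000 bases from the start or span end used, with 1 point for each of the 12 RRBS libraries and a bar at the mean of each group. NMDA points of Sc5d and Srebf2 lie between those of RPC and of young cells, for Fads1 the NMDA points, at 20.9 to 38.3%, lie above all others, and the 4 groups of Elovl6 lie at 31.8 to 37.4%.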

How the data were processed

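RNA was measured in 10 libraries and CpG methylation in 12, grouped by the labels. The submitters' processing notes name Bismark 0.16.3, methylKit 1.4.0, HISAT2 2.0.4 and Trim Galore 0.4.3 without saying which step each did. The authors deposited read counts per gene symbol; a counting tool or strand setting was not given in the sources used here. For RRBS, coverage and percent of methylated reads at each position were deposited, per the file headers, from 10 reads up. Positions are in mouse build GRCm38.

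One edgeR 4.0.16 model in R 4.3.3 took the counts of all 10 RNA libraries (TMM scaling, the package's expression filter, quasi-likelihood test, 6 residual degrees of freedom), and p-values were adjusted over 18931 genes by Benjamini and Hochberg. Methylated and unmethylated reads were summed per gene region and tested with a quasi-binomial F test moderated by limma 3.58.1, adjusted over all regions, for autosomes, so that Nsdhl and Ebp were left out. Gene interiors were also tested with the mean over positions in place of summed reads. A call needed a pooled difference of at least 10 percentage points. Both tests were run on simulated data with a spread set in advance. Those runs do not show how the tests behave at the spread of these libraries. The SEs come from the quasi-likelihood test and so reflect the spread between libraries, while the bounds cover counting error only.

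Members and lists were chosen with earlier results of these data known. All members are accounted for, and per-library values are printed for the 3 per role with the smallest adjusted p, for 7 set members and for those called in opposite directions. From the other lists, up to 4 genes per comparison were eligible. Some listed genes are counted but not named here. The alternatives were other scalings, filters, DESeq2 1.42.0, the 2 groups alone, a replicate block, a minimum of 2-fold, other read and distance minimums and each library left out in turn.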

Additional observations from a re-analysis of the deposited data

How the results depend on the processing

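Alternatives other than leaving out a library moved these counts of members called. At a change of at least 2-fold, 4 members were lower in NMDA against young cells, where 1509 of all genes were. In RPC against young cells 7 were higher and 9 lower, where 5588 and 3755 genes were. In NMDA against aged cells 3 were lower, where 976 genes were. In RPC against aged cells 7 were higher, where 3733 genes were. In aged against young cells 2 were lower, where 541 genes were. Fitting the 2 groups alone gave 4 higher and 0 lower in aged against young cells, where 322 and 19 of all genes were. It gave 1 higher in NMDA against aged cells, where 3376 of all genes were. For the lower members of aged against young cells, upper-quartile scaling gave 9, DESeq2 gave 8 and no filter gave 3. Over all genes these settings gave 1848, 1994 and 603 lower, against 1108 as fitted. Counting only members that contain no other annotated gene, chosen after seeing the data, gave 2 higher in NMDA and 2 higher and 2 lower in aged cells against young cells, 8 lower in RPC against young cells and 6 lower in RPC against aged cells, by its own construction from fewer members. For the others the cause was not tested.

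With each library left out in turn, 7 to 10 members were higher and 12 to 16 lower in NMDA against young cells, 6 to 13 and 2 to 8 in aged against young cells, 9 to 15 and 13 to 17 in RPC against young cells, 0 and 2 to 10 in NMDA against aged cells, and 8 to 11 and 13 in RPC against aged cells. Leaving out a young library turned the sign of 15 member changes against young cells, and 4 of these were called with or without it. For those 4, the log2 change without young 1 and without young 2 was -0.50 and 0.97 for Ebp in aged cells, -0.27 and 0.34 for Srebf2 in aged cells, -0.93 and 0.54 for Ebp in RPC, and -0.54 and 0.47 for Dhcr7 in RPC. No value is given for Acaca without young 1 or Acat2 without young 2, where the lone young library had 0 counts.

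With no minimum difference, 22, 22 and 17 member windows were called less methylated in NMDA, aged and RPC against young cells. For gene interiors these counts were 2, 2 and 1. The shares of all windows and interiors under this rule are not given here, and the median over all windows moved in the same direction. Weighting every position equally, chosen after seeing the data, gave 3 interiors more methylated in NMDA and 4 in RPC. With each RRBS library left out, 3 to 4 interiors were more methylated in NMDA and 6 to 7 in RPC against young cells. The deviations of same-numbered libraries from their group means correlated at -0.061 to 0.045 in RNA and -0.078 to 0.046 in RRBS. With 2 or 3 libraries in a group, these values cannot settle whether replicate numbers pair the samples. No pairing entered the main fits. A replicate block gave 5 members lower in NMDA against aged cells, where 11 were as fitted, and kept the other counts within 1.5 times. Over all genes it gave 1119 lower in NMDA against aged cells, where 1856 were as fitted.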
